A study of Mus musculus with 24 samples.

Results

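The interferon-gamma induced GTPases of this account are 10 mouse genes, taken by symbol from the 36333 genes of the deposited table. They comprise 7 guanylate-binding protein genes (Gbp2, Gbp3, Gbp4, Gbp5, Gbp6, Gbp7 and Gbp9) and 3 immunity-related GTPase genes (Irgm1, Igtp and Iigp1). All 10 exceeded the mean of 0.5 TPM over the 24 libraries that was required for testing, as did 17267 genes in all. TPM are by definition corrected for the length of a gene and for the total of its library, so that levels can be compared between genes. The study's methods name the unit TPM but add that the software calls it CPM, a unit without correction for length. If the values are CPM, the order of genes by level and sums over genes also reflect gene length. RNA came from brain tissue in and around the lesion of male mice, given in the labels as C57BL6N and 12 to 16 weeks old, with 1 library per mouse. TBI was produced by controlled cortical impact (CCI), and brains were taken at 5 dpi. The 4 TBI groups of 5 mice each received vehicle, PLX3397 (290 mg per kg of food), anakinra (100 mg/kg, injected subcutaneously) or PLX3397+Anakinra, and the fifth group held 4 sham-operated mice given vehicle. By the study's methods, the sham operation was anesthesia with a sutured skin incision, without opening the skull. Every comparison with sham therefore holds craniotomy and impact together. PLX3397 inhibits CSF1R, the receptor on which microglia depend for survival, and anakinra blocks the interleukin-1 receptor IL1R1. The study's methods name C57BL/6JRj mice and tissue that also held striatum, dorsal hippocampus and thalamus, whereas the labels name cortex.

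Interferon-gamma binds the receptor subunits IFNGR1 and IFNGR2, which act through the kinases JAK1 and JAK2 on transcription factors that bind GAS elements in target promoters. IRF1 and complexes that contain IRF9 bind ISRE elements, so that type I interferons induce many of the same genes. Guanylate-binding proteins are large GTPases that assemble on the membranes of intracellular pathogens and of the vacuoles around them, and they promote inflammasome activation. Among the immunity-related GTPases, Irgm1 and Igtp keep the effector members from acting on the cell's own membranes, and Iigp1 is one of those effectors. In the brain, microglia, infiltrating macrophages, astrocytes and endothelial cells can express them under interferon.

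The genes lie in a few clusters, here with the coordinates of the RefSeq annotation of GRCm38.p6. Chromosome 3 held Gbp5 (chr3:142496934-142522344), Gbp7 (chr3:142530336-142550151), Gbp3 (chr3:142560016-142573213) and Gbp2 (chr3:142620663-142638008). Chromosome 5 held Gbp9 (chr5:105076464-105110357), Gbp4 (chr5:105115767-105139586) and Gbp6 (chr5:105270702-105295871). Irgm1 (chr11:48865245-48871420) and Igtp (chr11:58199556-58207592) were on chromosome 11, and Iigp1 (chr18:60373616-60392634) was on chromosome 18. Gbp3 overlaps Gm40158 and Gbp2 overlaps Mir6381, and the use of strand in the counting is not given in the sources used here. Near-identical copies matter most for Gbp6. Of its 2505 transcript windows of 100 bases, 44.7% also occurred in another listed gene, nearly all of them in Gbp10, so that the level of Gbp6 is uncertain. The share was 5.16% for Igtp (with Irgm2), between 0.428% and 2.01% for Gbp3, Gbp4, Gbp7 and Gbp9, and 0 for Gbp2, Gbp5, Irgm1 and Iigp1.

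RefSeq windows from 250 bases before to 50 bases after the transcription start were at hand for 6 of the 10 genes (Gbp2, Gbp3, Gbp5, Gbp7, Irgm1 and Igtp). They are shown because the elements through which interferons act are known. The members were chosen by name as interferon-induced genes, so such elements could be foreseen and are no result of these data. The search was for the GAS core TTCNNNGAA, which reads the same on both strands, and for the ISRE core GAAANNGAAA, which reads TTTCNNTTTC on the other strand. The ISRE core was found in 6 of 6 members with a window, against 3.44% of 32851 mouse windows. Members are counted by gene here and the shares by window, of which the members had 7. The GAS core was found in 3 of 6 (Gbp5, Gbp7 and Igtp), against 8.3% of all windows, and 0.45% of all windows held both. GAS and ISRE matches did not overlap each other in these windows. A match describes the letters and does not show that a factor binds there.

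The stretches that hold the matches follow, 5′ to 3′ on the strand of the gene, with GAS and ISRE matches in capitals.
Gbp5 (chr3:142496684-142496915, plus strand): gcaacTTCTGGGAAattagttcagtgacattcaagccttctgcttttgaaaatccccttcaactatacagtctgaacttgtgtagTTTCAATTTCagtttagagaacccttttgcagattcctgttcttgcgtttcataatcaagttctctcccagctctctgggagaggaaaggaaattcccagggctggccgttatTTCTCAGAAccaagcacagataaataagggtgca
Gbp7 (chr3:142530205-142530317, plus strand): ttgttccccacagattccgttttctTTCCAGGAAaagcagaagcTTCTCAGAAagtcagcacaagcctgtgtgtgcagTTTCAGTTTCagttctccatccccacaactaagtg
Gbp3 (chr3:142559974-142560039, plus strand): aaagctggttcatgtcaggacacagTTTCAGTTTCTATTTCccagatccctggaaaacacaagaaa
Gbp2 (chr3:142620579-142620638, plus strand): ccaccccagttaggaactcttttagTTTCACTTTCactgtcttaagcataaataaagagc
Irgm1 (chr11:48871410-48871475, minus strand): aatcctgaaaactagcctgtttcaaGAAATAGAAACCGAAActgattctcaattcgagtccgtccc
Igtp (chr11:58199486-58199556, plus strand): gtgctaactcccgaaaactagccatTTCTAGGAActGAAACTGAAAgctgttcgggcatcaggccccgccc

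The ISRE match of Igtp (first base at -34 from the start) carried, on the other strand, the same 10 letters as those of Gbp7 (at -53) and Gbp3 (at -45). In Igtp the GAS match began at -45, just before the ISRE match. Gbp3 and Irgm1 each held a pair of ISRE matches that overlapped each other. The start-proximal GAS match of Gbp5 (at -52) had the same letters as the one of Gbp7 at -87. Gbp3 had a second annotated start, whose window held neither core.

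After TBI all 10 genes were higher. In vehicle-treated TBI mice versus sham mice, 10 of 10 were up-regulated at an adjusted p below 0.05 (limma on log2(TPM + 1), Benjamini-Hochberg over all genes tested), where 26.6% of all genes tested were called higher. Their median log2 fold change was 1.62, against -0.01 over all genes tested. Every vehicle-treated mouse exceeded every sham mouse for 10 of 10 members, a separation in this direction that 21.7% of all genes showed. Only the vehicle mice have animal numbers that end in B, and a batch marked by that letter could not be told apart from injury. Fold changes on this scale understate the change of genes at low TPM, so ratios of mean TPM are given as well. Markers of several cell types were higher in the same comparison, with 8 of 8 called for microglia, 7 of 7 for monocytes and macrophages, 5 of 5 for astrocytes, 4 of 5 for endothelium and 2 of 2 tested for neutrophils, and the part of these cells in the rise of the GTPases was not tested.

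Gbp3, from the cluster on chromosome 3, showed the largest log2 fold change of the members. The sham mice had 3.95, 3.69, 3.05 and 3.44 TPM and the vehicle-treated mice 20.1, 20.6, 27.6, 25.8 and 24.9 TPM. The groups were far apart, with a mean of 23.8 ± 3.28 TPM (SD, n = 5) in the vehicle group and 3.53 ± 0.383 TPM (SD, n = 4) in the sham group. The log2 fold change was 2.44 ± 0.15 (SE, adjusted p = 7.04e-13), and the ratio of means was 6.73.

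The effector GTPase gene Iigp1 had the lowest mean of the members in sham mice. Its levels were 1.03, 1.92, 1.23 and 1.18 TPM there and 7.97, 6.26, 7.23, 8.45 and 9.37 TPM in the vehicle group. The lowest vehicle-treated mouse was thus well above the highest sham mouse. The log2 fold change was 1.92 ± 0.14 (SE, adjusted p = 3.04e-11), at a ratio of means of 5.86.

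Irgm1, a regulator of the effector GTPases, was the most abundant member in each of the 5 groups. It measured 7.60, 10.1, 8.91 and 10.04 TPM in sham mice and 32.6, 28.9, 36.8, 38.97 and 38.1 TPM in vehicle-treated mice. The ranges did not overlap, and the log2 fold change was 1.83 ± 0.13 (SE, adjusted p = 8.29e-12). The other regulator, Igtp, was nearly as abundant as Irgm1 in sham mice, where their ranges overlapped, but its ratio of means after TBI was smaller. Its sham mice had 9.20, 8.65, 7.98 and 7.29 TPM and its vehicle-treated mice 18.3, 16.3, 19.8, 20.5 and 21.8 TPM. The groups were separate, with a log2 fold change of 1.13 ± 0.11 (SE, adjusted p = 2.77e-09) and a ratio of means of 2.34.

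The remaining guanylate-binding protein genes rose by very different amounts. Gbp6 reached a ratio of means of 6.56 and Gbp2, which is recruited to vacuoles of intracellular parasites, of 4.79. Gbp7 rose at a ratio of 3.14, Gbp5, which has been linked to the NLRP3 inflammasome, at 2.82, and Gbp9 at 1.98. Their log2 fold changes were 2.11 (Gbp6), 1.98 (Gbp2), 1.42 (Gbp7), 1.26 (Gbp5) and 0.80 (Gbp9), each with an adjusted p of 2.36e-07 or less.

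Gbp4 stood apart by its small increase. It measured 2.33, 2.15, 1.72 and 1.89 TPM in sham mice and 2.44, 2.94, 3.11, 2.72 and 2.66 TPM in vehicle-treated mice. The highest sham mouse lay just under the lowest vehicle-treated mouse. The log2 fold change was 0.32 ± 0.12 (SE, adjusted p = 0.0294), at a ratio of 1.37. This call was lost without vehicle mouse J17B or J18B or without sham mouse J15 or J16 and when genes below 0.5 TPM were tested as well (Gbp4 log2 fold change between 0.27 and 0.32, with adjusted p between 0.0522 and 0.0936). In the vehicle group the order of mean TPM ran from Irgm1 (35.1) over Gbp3 (23.8), Igtp (19.4), Gbp2 (17.8), Gbp7 (11.5), Gbp6 (9.91), Gbp5 (9.71), Iigp1 (7.85) and Gbp9 (6.34) to Gbp4 (2.78). Of neighbours in this order, Irgm1 and Gbp3, Gbp2 and Gbp7, and Gbp9 and Gbp4 had separate ranges over the 5 mice, whereas the other pairs overlapped.

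**Figure D1:**
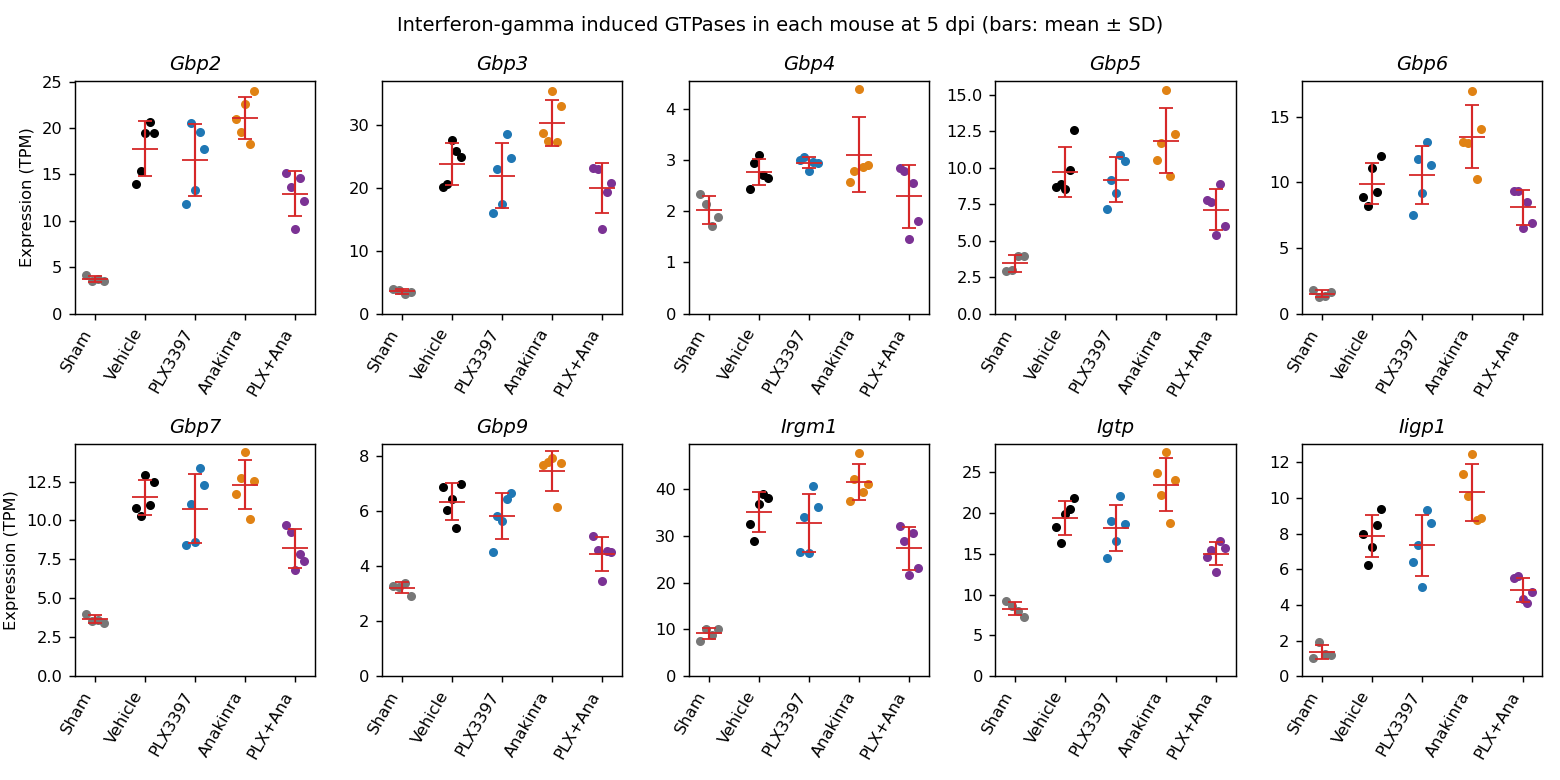
Level of each gene in every mouse (y axis, TPM, linear from 0, with a scale of its own in each panel) in the 5 groups (x axis; PLX+Ana is PLX3397+Anakinra). Points are mice and red bars the mean ± SD; in each panel the Anakinra mean is the highest (for Gbp4 through mouse J14) and the sham mean the lowest, and the sham means lie between 1.34 TPM (Iigp1) and 9.17 TPM (Irgm1).

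Relative to sham, the members were also higher in each drug-treated group. Under PLX3397, 10 of 10 were up-regulated (22.7% of all genes called higher) and 10 of 10 had separate groups (18.7% of all genes), with a median log2 fold change of 1.52. Under Anakinra the same counts were 10 of 10 (25.1%) and 10 of 10 (21.3%), with a median of 1.80. Under PLX3397+Anakinra, 9 of 10 were up-regulated (20.7%) and 9 of 10 had separate groups (16.9%), with a median of 1.15. The exception was Gbp4, with 2.85, 2.79, 1.47, 2.57 and 1.81 TPM. The lowest 2 of these mice lay within the sham range or below it, and the mean of 2.30 ± 0.623 TPM (SD, n = 5) gave a log2 fold change of 0.11 (adjusted p = 0.523). These comparisons share the sham mice and are given side by side only.

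The order of the TBI groups was alike across the members. Anakinra had the highest mean for 10 of 10 genes, PLX3397+Anakinra the lowest mean of the TBI groups for 10 of 10, and the vehicle group was second for 8. Gbp4 and Gbp6 were the exceptions, with PLX3397 second. For Gbp4 the first place of Anakinra rested on mouse J14, without which the Anakinra mean was 2.79 TPM, below the 2.96 TPM of PLX3397. The summed level of the 10 genes was 144 ± 15.9 TPM in the vehicle group, 136 ± 25.6 TPM under PLX3397, 175 ± 19.5 TPM under Anakinra and 110.2 ± 16.4 TPM under PLX3397+Anakinra (SD, n = 5 each), against 39.9 ± 0.959 TPM in sham mice (SD, n = 4).

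PLX3397 alone left no member called different from vehicle. Of the 10 members 0 were down-regulated, against 6.66% of all genes called lower in limma, and 0 had an unadjusted p below 0.05 in that direction, against 12.4% of all genes. The ranges overlapped for every member, and 4.91% of all genes lay entirely lower. With shares this small, 0 of 10 does not set the members apart from genes in general. The log2 fold changes ran from -0.13 for Gbp3 (95% interval -0.42 to 0.15) to 0.07 for Gbp6 (-0.20 to 0.35), and the smallest adjusted p was 0.527. In the same comparison 8 of 8 microglial markers and 6 of 7 markers of monocytes and macrophages were lower, and the part of these cells in the GTPase levels was not tested. The vehicle mice were the only ones whose animal number ends in B. If that letter marks a batch, it cannot be told apart from the treatment, here or in any comparison with vehicle.

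Irgm1 illustrates the spread under PLX3397. The 5 mice had 26.6, 34.1, 26.4, 40.7 and 36.2 TPM. They spanned a wider range than the vehicle-treated mice and lay on both sides of their mean (log2 fold change -0.11 ± 0.12, SE, adjusted p = 0.661). Within the PLX3397 group, mouse J01 was lowest for 7 of the 10 genes and mouse J19 highest for 7.

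Anakinra alone was associated with higher values that did not pass the threshold. The log2 fold changes versus vehicle were positive for 10 of 10 members, from 0.09 (Gbp7) to 0.41 (Gbp6), with a median of 0.25 against -0.02 over all genes tested. In limma, 0 of 10 passed the adjusted threshold, as 0.0695% of all genes did in that direction. At an unadjusted p below 0.05, 5 of 10 were higher (Gbp3, Gbp6, Gbp9, Igtp and Iigp1), against 5.5% of all genes. The smallest adjusted p was 0.201 (Gbp6), and no member had separate groups, as 1.14% of all genes did.

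Iigp1 is an example of this pattern. Its Anakinra mice had 11.3, 10.1, 12.5, 8.78 and 8.86 TPM, of which 3 exceeded the highest vehicle-treated mouse. The log2 fold change versus vehicle was 0.35 (95% interval 0.08 to 0.63, adjusted p = 0.268). Gbp6 measured 13.1, 13.02, 16.95, 10.3 and 14.1 TPM under Anakinra and 8.89, 8.23, 11.1, 9.30 and 12.02 TPM in the vehicle group. The groups overlapped through mouse J21, the lowest of the Anakinra mice, and the log2 fold change was 0.41 (95% interval 0.13 to 0.68).

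PLX3397+Anakinra versus vehicle gave lower values for 10 of 10 members. Of these, 7 were down-regulated at an adjusted p below 0.05 (Gbp2, Gbp5, Gbp7, Gbp9, Irgm1, Igtp and Iigp1), where 9.6% of all genes tested were called lower. The median log2 fold change was -0.38, against 0.01 over all genes. In 3 of 10 (Gbp7, Gbp9 and Iigp1) every mouse of the combination was below every vehicle-treated mouse, as in 6.62% of all genes. Gbp3 (-0.25, adjusted p = 0.228), Gbp4 (-0.22, adjusted p = 0.22) and Gbp6 (-0.26, adjusted p = 0.196) did not pass the threshold. If the letter B of the vehicle animal numbers marks a batch, it cannot be told apart from the treatment in this comparison either.

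The largest difference was that of Iigp1. With the combination the mice had 5.51, 5.60, 4.33, 4.11 and 4.73 TPM, all under the lowest vehicle-treated mouse. The percent change of the mean was -38.2%, and the log2 fold change was -0.59 ± 0.13 (SE, adjusted p = 0.0027). Gbp9, encoded in the cluster on chromosome 5, had 5.10, 4.58, 3.45, 4.55 and 4.49 TPM with the combination and 6.85, 6.04, 6.44, 5.37 and 6.98 TPM with vehicle. The ranges were adjacent without touching, and the log2 fold change was -0.44 ± 0.09 (SE, adjusted p = 0.00166).

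Gbp7, which has been linked to the transport of defence proteins to pathogen vacuoles, measured 9.69, 9.25, 6.84, 7.84 and 7.37 TPM with the combination and 10.8, 10.3, 12.9, 10.97 and 12.5 TPM with vehicle. These groups were separate too, at a log2 fold change of -0.45 ± 0.11 (SE, adjusted p = 0.00614). Irgm1 measured 32.1, 28.99, 21.6, 30.6 and 23.2 TPM with the combination. Some of these mice lay within the vehicle range, and the log2 fold change was -0.36 ± 0.12 (SE, adjusted p = 0.0379).

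Gbp5 measured 7.81, 7.64, 5.37, 8.85 and 5.98 TPM with the combination and 8.66, 8.91, 8.52, 9.87 and 12.6 TPM with vehicle. The groups overlapped through 1 mouse of the combination, and the log2 fold change was -0.40 ± 0.13 (SE, adjusted p = 0.0394).

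Gbp7, Gbp9 and Iigp1 kept an adjusted p below 0.05 whichever mouse was left out, but the other 4 calls were lost without single mice. Without vehicle mouse J19B, without vehicle mouse J20B or without PLX3397+Anakinra mouse J09, 3 members were called, without PLX3397+Anakinra mouse J17 4 were called, and without vehicle mouse J18B 5. With only the compared groups in the fit 5 were called, and Gbp5 (adjusted p = 0.06) and Irgm1 (adjusted p = 0.0526) were not. When genes below 0.5 TPM were tested as well 4 were called, and Gbp2 (adjusted p = 0.0559), Gbp5 (adjusted p = 0.0737) and Irgm1 (adjusted p = 0.0703) were not. Mouse J09 was the lowest of its group for 9 of the 10 members.

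**Figure D2:**
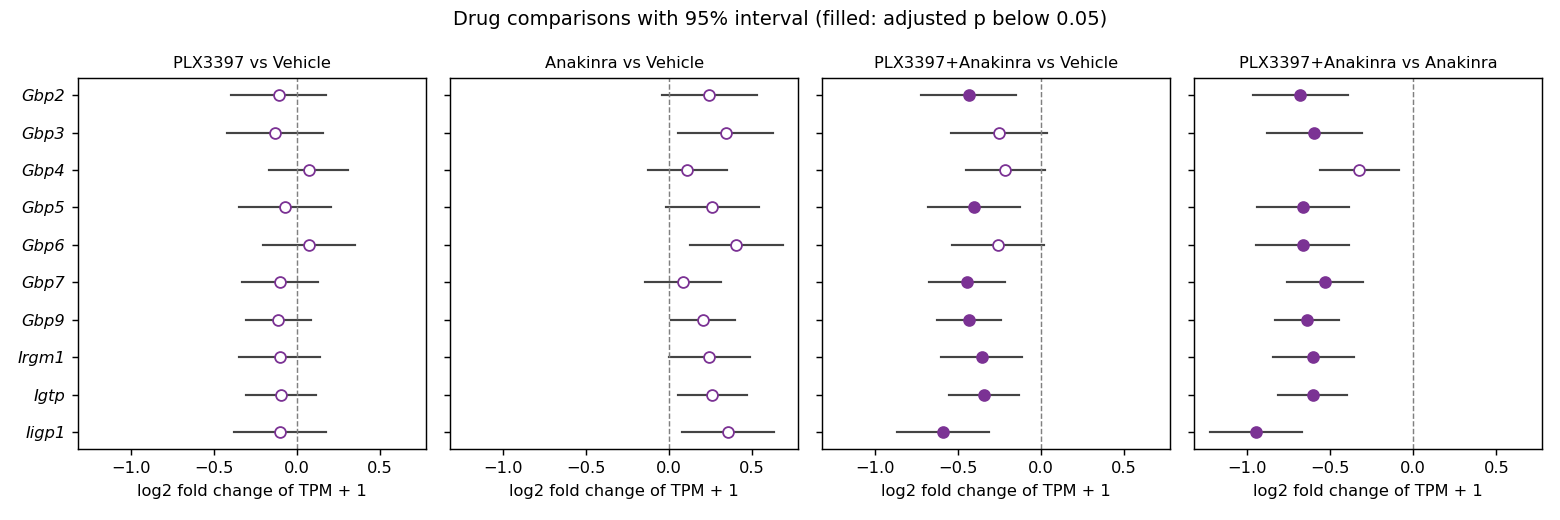
Log2 fold change of TPM + 1 (x axis) of each gene (y axis) in 4 comparisons, with 95% intervals as lines and filled points for an adjusted p below 0.05. No point is filled for PLX3397 or Anakinra alone versus vehicle, 7 are filled for PLX3397+Anakinra versus vehicle and 9 for PLX3397+Anakinra versus Anakinra.

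Against Anakinra alone more members were called. Here 9 of 10 members were down-regulated, where 8.1% of all genes tested were called lower, and 9 of 10 had separate groups, as 7.26% of all genes did. The median log2 fold change was -0.62, against 0.03 over all genes. Gbp4 was the exception (-0.32, adjusted p = 0.0661). Iigp1 again changed most, from 11.3, 10.1, 12.5, 8.78 and 8.86 TPM to the values of the combination given above, a change of the mean by -52.9%. The log2 fold change was -0.95 ± 0.13 (SE, adjusted p = 1.23e-05).

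Gbp2 had 20.96, 19.6, 22.6, 18.3 and 24.04 TPM under Anakinra and 15.2, 13.6, 9.12, 14.6 and 12.1 TPM with the combination. The ranges were apart, with a log2 fold change of -0.68 ± 0.14 (SE, adjusted p = 0.00115). Igtp had 24.9, 22.2, 27.5, 18.7 and 24.01 TPM under Anakinra and 14.6, 15.5, 12.8, 16.5 and 15.7 TPM with the combination. These ranges were apart as well, with a log2 fold change of -0.61 ± 0.10 (SE, adjusted p = 0.00012). The comparison shares the PLX3397+Anakinra mice with that versus vehicle.

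Against PLX3397 alone the combination gave lower values for 10 of 10 members, with log2 fold changes from -0.12 (Gbp3) to -0.49 (Iigp1), but 0 of 10 passed the adjusted threshold in limma, where 0.145% of all genes were called lower. At an unadjusted p below 0.05, 9 of 10 were lower (all but Gbp3), against 3.78% of all genes. Because the members shared high and low mice, these are not 9 independent results. The ranges overlapped for every member, and 0.764% of all genes lay entirely lower, a share that 0 of 10 is near. The smallest adjusted p was 0.179, for Iigp1, whose mice under PLX3397 had 6.41, 7.36, 5.02, 9.32 and 8.61 TPM. The lowest of them, mouse J12, lay within the range of the combination. Without PLX3397 mouse J01, Gbp9 passed the threshold (adjusted p = 0.0469).

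Whether anakinra acted differently with and without PLX3397 was asked by the interaction, that is, the change from PLX3397 to the combination minus the change from vehicle to Anakinra. It was negative for 10 of 10 members, from -0.84 for Iigp1 (95% interval -1.24 to -0.45) to -0.39 for Gbp4 (-0.73 to -0.06). After adjustment 0 of 10 passed in limma, and the share over all genes was 0%, with a smallest adjusted p among the members of 0.285. At an unadjusted p below 0.05, 10 of 10 were negative, against 4.22% of all genes. The members shared their high and low mice, so these are not 10 independent results. The responses to anakinra with and without PLX3397 were thus not shown to differ after adjustment over all genes.

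The limits that the study used for DEGs were an unadjusted p below 0.05, a ratio of mean TPM above 2 and a difference above 4 TPM. With p taken from limma here and not from the study's own tests, fewer members counted. These limits called 8 of 10 higher in vehicle versus sham (5.11% of all genes) and 8 of 10 in PLX3397 versus sham (3.58%). In Anakinra versus sham 9 of 10 were called higher (5.24%), and in PLX3397+Anakinra versus sham 5 of 10 (2.84%). Versus vehicle the combination had 0 of 10 lower (1.55%), since no ratio was beyond the limit. Versus Anakinra it had 1 of 10 lower (1.55%), which was Iigp1.

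The same mice tended to be high or low for many members. The members are therefore not independent of each other. A count over them beside a share of all genes is no measure of chance. Anakinra mouse J14 had the highest value of its group for 9 of 10 genes and mouse J21 the lowest for 8. With the combination, mouse J03 was highest for 6 and mouse J09 lowest for 9. In the vehicle group mouse J20B was highest for 5 and mouse J17B lowest for 5. Over the summed level, J14 had 204.5 TPM, against 151 to 180.4 TPM in the other Anakinra mice, and J09 had 84.9 TPM, against 103 to 125 TPM in the other mice of its group.

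**Figure D3:**
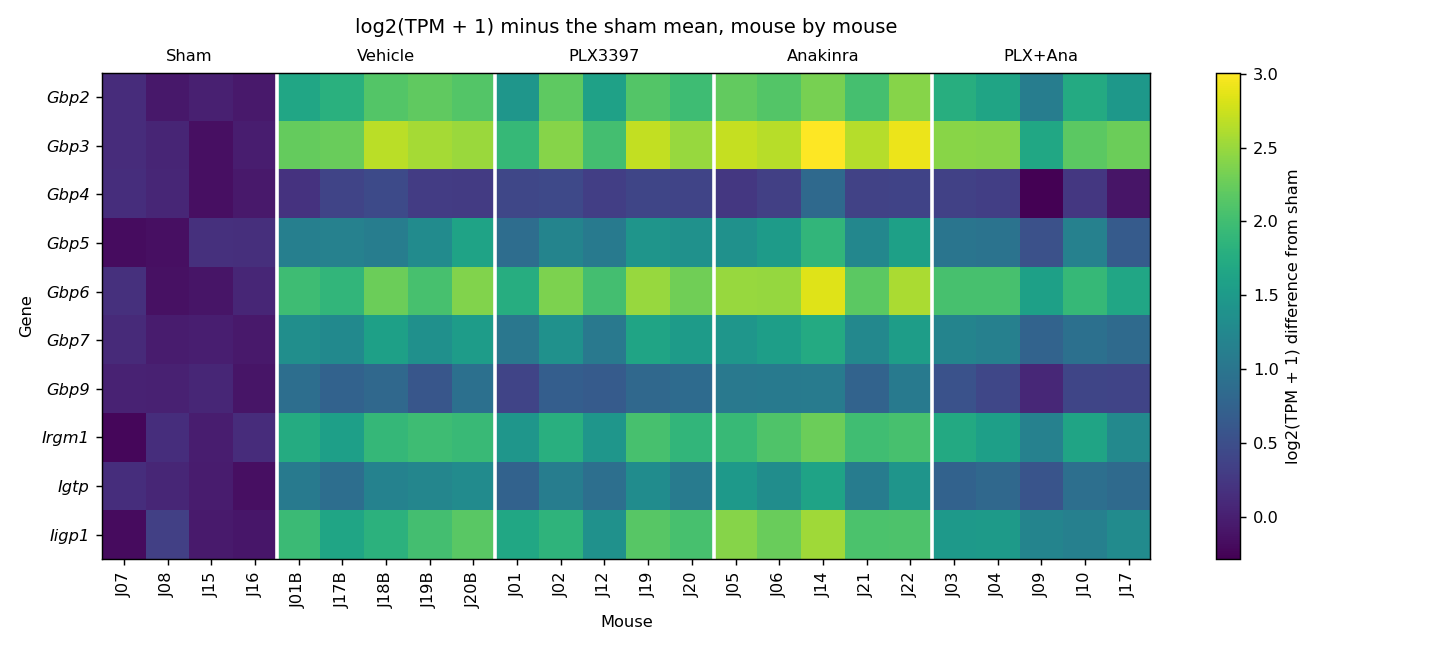
Heat map of log2(TPM + 1) minus the sham mean (colour scale) for the 10 genes (rows) in the 24 mice (columns, by group). Columns differ as a whole: PLX3397+Anakinra mouse J09 is darker than its group for nearly every gene, Anakinra mouse J14 is brighter than its group, and Gbp4 stays dark throughout.

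The cytokine itself was almost undetected. Ifng was listed at 0 in 4 of 4 sham and 5 of 5 vehicle-treated libraries and in 4 of 5 libraries of each drug group, and its highest value was 0.227 TPM. Depth is unknown, so this does not show that it was absent. Of the receptor genes, Ifngr1 rose after TBI, from 22.2 ± 1.85 TPM (SD, n = 4) to 49.4 ± 4.42 TPM (SD, n = 5; log2 fold change 1.12, adjusted p = 1.68e-10). It was lower under PLX3397 (36.1 ± 5.62 TPM, adjusted p = 0.000752 versus vehicle) and with the combination (32.9 ± 3.30 TPM, adjusted p = 2.23e-05). Ifngr2 had group means between 54.2 and 62.0 TPM, and its changes were small. It was higher in vehicle versus sham (log2 fold change 0.17, adjusted p = 0.00616) and lower with the combination than with vehicle (-0.15, adjusted p = 0.0342). Jak1 and Jak2 did not pass the threshold in vehicle versus sham (log2 fold changes -0.08 and 0.12).

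The transcription factor genes Irf1 and Irf9 followed the group order of the GTPases. Irf1 had means of 5.42 TPM in sham mice, 11.7 TPM with vehicle, 10.7 TPM under PLX3397, 13.2 TPM under Anakinra and 9.18 TPM with the combination. The means of Irf9 were 10.6, 30.4, 25.4, 34.6 and 22.4 TPM in the same groups. The combination differed from vehicle for Irf1 (-0.31, adjusted p = 0.0205) and for Irf9 (-0.42, adjusted p = 0.00128). Irf8, a factor of myeloid cells, differed from this order. Its means were 4.83, 32.0, 13.1, 28.8 and 10.2 TPM, and it was lower under PLX3397 alone than with vehicle (-1.24, adjusted p = 1.81e-07). Over the list of pathway genes, 14 of 15 were tested. Of these 9 were higher and 1 lower in vehicle versus sham, 0 higher and 2 lower in PLX3397 versus vehicle, and 1 higher and 7 lower in PLX3397+Anakinra versus vehicle.

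**Figure D4:**
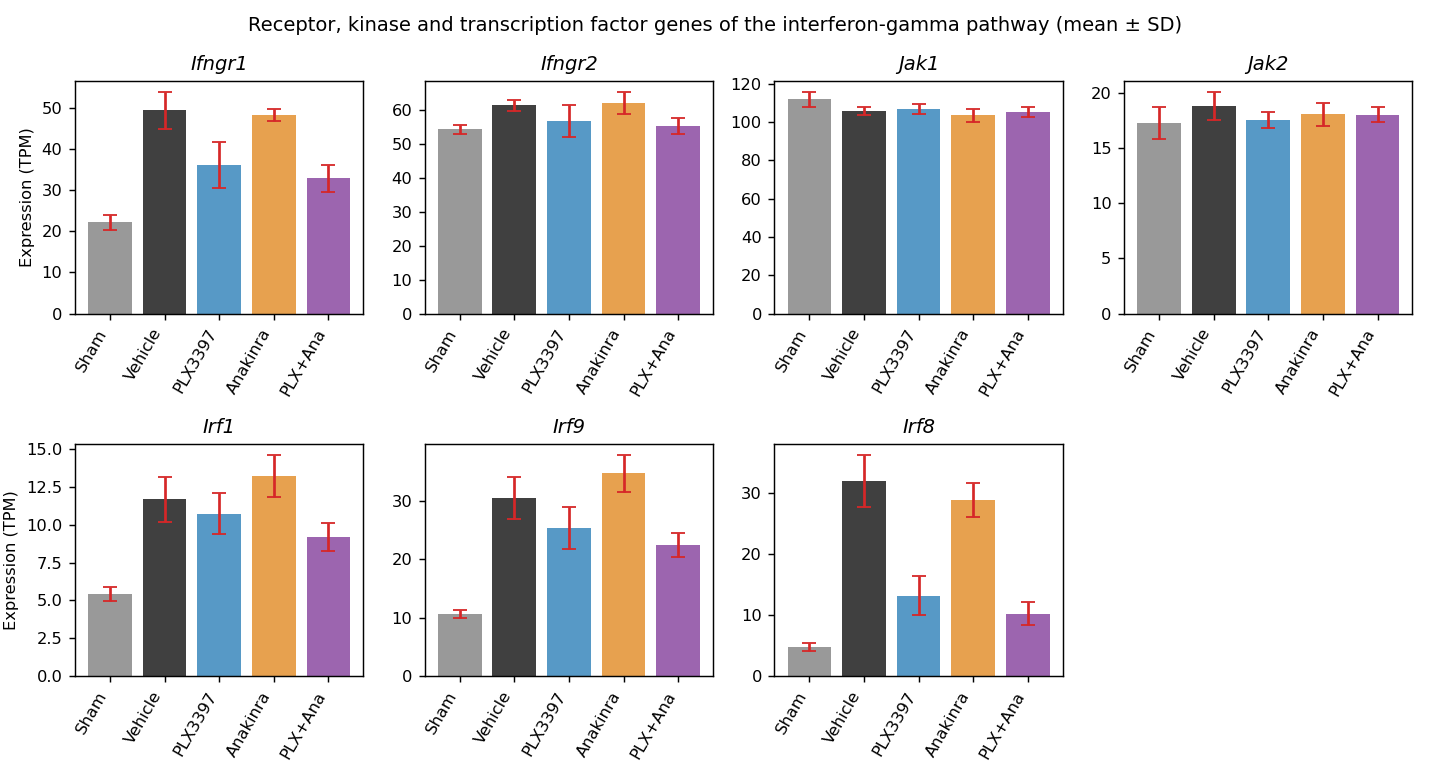
Mean level (y axis, TPM, from 0) of 7 interferon-gamma pathway genes in the 5 groups (x axis; PLX+Ana is PLX3397+Anakinra), with the SD over 5 mice (4 for sham) in red. Irf1 and Irf9 are highest under Anakinra, Irf8 is lower in both groups that received PLX3397 (13.1 and 10.2 TPM) than with vehicle (32.0 TPM), and Jak1 and Jak2 are nearly level.

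Most other GTPases of these families changed in the direction of the members. Of 13 listed by name 9 were tested, and 8 were higher and 1 lower in vehicle versus sham. The one lower was Irgq. In PLX3397 versus vehicle 0 of 9 were called in limma (3 lower at an unadjusted p below 0.05), and in PLX3397+Anakinra versus vehicle 5 of 9 were lower. Irgm2, another regulator, had means of 4.03, 12.8, 10.7, 14.7 and 8.44 TPM in sham, vehicle, PLX3397, Anakinra and combination mice, and its difference between combination and vehicle was -0.55 (adjusted p = 0.000774). Tgtp2, an effector, differed by -0.53 (adjusted p = 0.0139) and Gm12250 by -0.76 (adjusted p = 0.00045).

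Among 13 tested targets of interferon-gamma outside these families, 11 were higher and 1 lower in vehicle versus sham. In PLX3397 versus vehicle 3 were lower, and in PLX3397+Anakinra versus vehicle 9 were lower. The chemokine gene Cxcl10 had log2 fold changes versus vehicle of 0.01 under PLX3397 (adjusted p = 0.986) and -0.53 with the combination (adjusted p = 0.0242). B2m and Psmb8, which serve antigen presentation, were already lower under PLX3397 alone, at log2 fold changes of -0.65 (B2m, adjusted p = 2.3e-05) and -0.66 (Psmb8, adjusted p = 0.000833). Anakinra versus vehicle gave 0 calls in limma among the tested pathway genes and targets, with 3 and 4 of them higher at an unadjusted p below 0.05.

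Among 12 genes whose products work with these GTPases, in autophagy or inflammasomes, 7 were higher and 3 lower in vehicle versus sham. In PLX3397 versus vehicle 1 was higher and 4 were lower, and in PLX3397+Anakinra versus vehicle 2 were higher and 5 lower. In PLX3397 versus vehicle, Nlrp3 fell by 0.95 (adjusted p = 1.33e-06) and Casp1 by 0.74 (adjusted p = 0.000352) on the log2 scale. Casp4, which encodes the mouse caspase-11, was at -0.31 (adjusted p = 0.219) under PLX3397 and fell by 0.75 with the combination (adjusted p = 0.000859). The means of the autophagy gene Atg16l1 went the other way, at 61.9 TPM in sham mice, 48.0 TPM with vehicle, 53.5 TPM under PLX3397 and 55.5 TPM with the combination.

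Markers of the cell types of the brain were read in the same libraries. In bulk tissue fewer cells of a type and less RNA per cell cannot be told apart. Of 8 microglial markers, 8 were lower in PLX3397 versus vehicle (median log2 fold change -1.35) and 8 with the combination versus vehicle (-1.43), while 0 were called in limma between the combination and PLX3397 (-0.05; 1 lower at an unadjusted p below 0.05). Their summed level ranged from 1197 to 1525 TPM with vehicle, 509.9 to 775 TPM under PLX3397, 1297 to 1474 TPM under Anakinra, 466 to 621 TPM with the combination and 324 to 341 TPM in sham mice. Under PLX3397 the microglial markers thus lay entirely below the vehicle range while the summed GTPase level, at 106 to 167 TPM, spanned that of vehicle (124 to 160.4 TPM), and the part of microglia in that level was not tested.

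Of 7 markers of monocytes and macrophages, 6 were lower in PLX3397 versus vehicle, 6 with the combination versus vehicle and 4 with the combination versus PLX3397. Their summed level ranged from 1302 to 2597 TPM with vehicle, 746 to 1359 TPM under PLX3397, 1022 to 1760 TPM under Anakinra, 338 to 443 TPM with the combination and 17.6 to 26.9 TPM in sham mice. This sum was mostly Lyz2, with means of 2072 TPM with vehicle and 378 TPM with the combination. The next marker in the vehicle group, Arg1, had a mean of 42.8 TPM. Ly6c2 had means of 1.42 TPM with vehicle, 2.00 TPM under PLX3397, 2.98 TPM under Anakinra and 0.964 TPM with the combination, with overlapping ranges. The combination was the TBI group with the lowest summed level of these markers and with the lowest mean of the summed GTPases. Its median sum of microglial markers was also the lowest of the TBI groups (541 TPM, against 573 TPM under PLX3397). Anakinra had the highest mean of the summed GTPases (175 TPM, against 144 TPM with vehicle). Its median sum of monocyte and macrophage markers was 1449 TPM, against 2497 TPM with vehicle. The part of microglia, monocytes and macrophages in the GTPase levels was not tested.

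Of 10 markers of T and NK cells only Cd4 reached 0.5 TPM on average. The others were near 0, with a highest value of 1.37 TPM (Nkg7), and Cd3e stayed at or below 0.363 TPM. After TBI the astrocytic markers rose (5 of 5 in vehicle versus sham, median log2 fold change 0.76), and their summed level ranged from 1160 to 1268 TPM in sham mice and from 3058 to 4125 TPM with vehicle. Gfap, an intermediate filament gene of reactive astrocytes, went from 115 ± 7.31 TPM (SD, n = 4) to 1945 ± 360.1 TPM (SD, n = 5). Of the endothelial markers 4 of 5 were higher (median 0.45), with sums of 122 to 136 TPM in sham mice and 145 to 189 TPM with vehicle. Of 5 neutrophil markers 2 were tested, S100a8 and S100a9, and both were higher, while Ly6g, Mpo and Camp were near 0. The endothelial, astrocytic and neutrophil markers (5, 5 and 2 tested) gave 0 calls in limma in each comparison of a drug group with vehicle. At an unadjusted p below 0.05, 2 endothelial markers were lower with the combination, 1 was lower under Anakinra, and the astrocytic markers gave 1 lower under PLX3397 and 3 lower and 1 higher under Anakinra. Neuronal markers were lower after TBI (5 of 5), and with the combination 4 of 5 were higher than with vehicle. The cortical markers Tbr1 and Cux2 were above 0 in every library, and the striatal markers Ppp1r1b, Drd1 and Adora2a had a summed range of 604 to 1061 TPM.

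**Figure D5:**
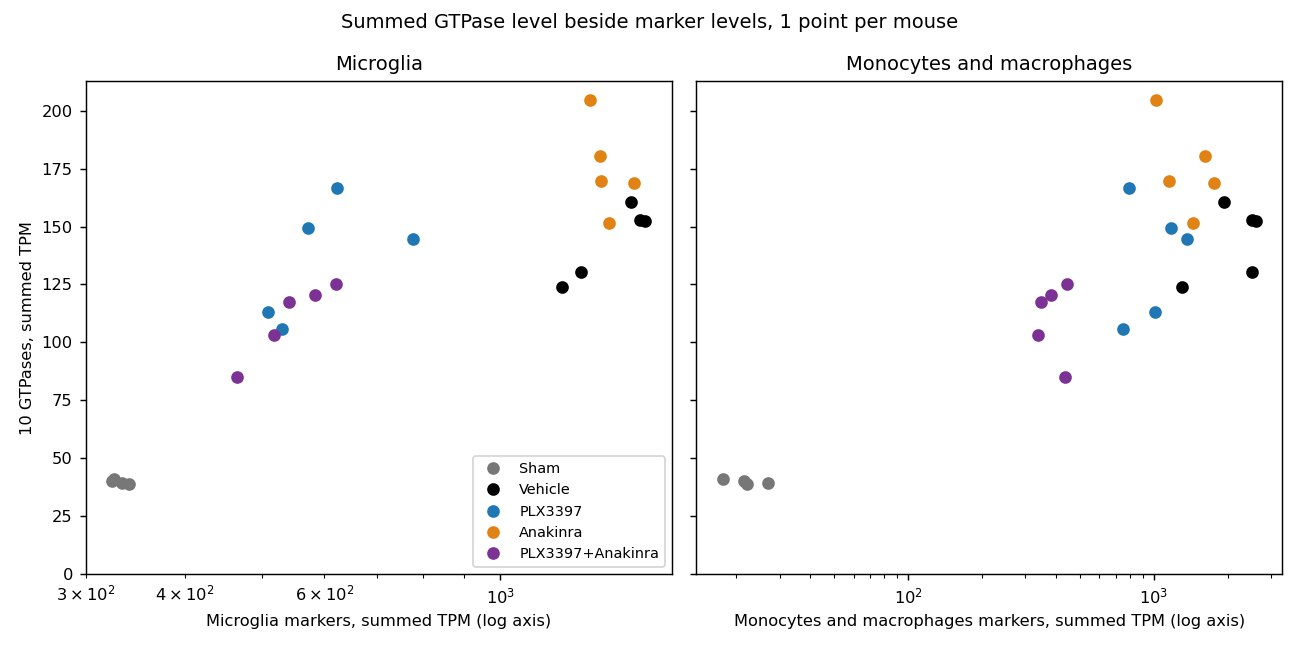
Summed TPM of the 10 GTPases (y axis, from 0) against the summed TPM of microglial (left) and of monocyte and macrophage markers (right; both x axes logarithmic), 1 point per mouse, coloured by group. The PLX3397 mice lie left of the vehicle mice in the microglial panel at overlapping heights, and the PLX3397+Anakinra mice (338 to 443 TPM) lie left of all other TBI mice in the right panel. The sum in the right panel is mostly Lyz2.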

How the data were processed

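RNA of 24 male mice (vehicle, PLX3397, Anakinra and PLX3397+Anakinra, 5 mice each, and 4 sham mice) was sequenced at 5 dpi after poly(A) selection, and groups follow the treatment in the labels. Reads were mapped by the authors with CLC Genomics Workbench (21.0.5) against mm10, and expression was deposited as TPM, which sum to 1000000 per library. The counting of reads shared between genes is not given in the sources used here. TPM keep no depth and no counts were used, so the precision rests on the spread between mice, and no counting intervals are given. A further deposited table with p-values and F values of the authors' own tests was not used.

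Here limma 3.58.1 (R 4.3.3) was fitted to log2(TPM + 1) of the 17267 genes that averaged 0.5 TPM or more. The design had 1 coefficient per group over all 24 libraries, with a trended variance. A gene was called at a Benjamini-Hochberg adjusted p below 0.05. The fit was tested on simulated data. The 10 members, the gene lists and the markers were chosen with earlier results of these data known. All members are named. From the pathway list Ifng, its receptor genes, Jak1, Jak2 and Irf1 are named, and from each list the 3 genes with the smallest p of the F-test over the groups among those with a mean of at least 1 TPM. Some listed genes are not reported here. Irgq, Gbp10, Nkg7, Cd3e, Ly6c2, Arg1 and Atg16l1 were named after their values were seen. Promoter windows came from RefSeq (GRCm38.p6) and transcripts for shared windows from GENCODE. Alternatives were another pseudocount (0.1), no filter, a mean of at least 5 TPM, median-ratio scaling, the rounded table, a fit of the compared groups only, the limits of the study and leaving out each mouse in turn.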

Additional observations from a re-analysis of the deposited data

Results flagged for a closer look

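In the Anakinra group, Gbp4 in mouse J14 lay far above the other 4 mice, at 4.41 TPM against 2.59 to 2.91 TPM. In the same group, Gbp9 in mouse J21 lay far below the others, at 6.14 TPM against 7.64 to 7.90 TPM. The gap to the nearest mouse was 0.822 of the range for Gbp4 and 0.855 for Gbp9, beyond Dixon's 95% limit of 0.71 for 5 mice. Of 50 combinations of gene and group 2 were beyond the limit, and chance alone gives about 1 in 20.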

How the results depend on the processing

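Of the counts and medians over the 10 members, most stayed within 1.5 times or 1 SD of the values given. With genes of at least 5 TPM, which left out Gbp4, the median log2 fold change versus sham was 1.83 for vehicle, 1.72 for PLX3397, 2.07 for Anakinra and 1.33 for PLX3397+Anakinra, and for the last it was 1.35 with a pseudocount of 0.1. By the limits of the study, 5 members were called in PLX3397+Anakinra versus sham, 0 in PLX3397+Anakinra versus vehicle and 1 in PLX3397+Anakinra versus Anakinra. Without a filter 4 members were called in PLX3397+Anakinra versus vehicle. With single mice left out, the calls were 3 to 7 in PLX3397+Anakinra versus vehicle, 0 to 1 in PLX3397+Anakinra versus PLX3397, 9 to 10 in PLX3397+Anakinra versus Anakinra and 9 to 10 in vehicle versus sham. The sign turned when 1 mouse was left out for uncalled values only. In PLX3397 versus vehicle these were Gbp5 (-0.131 to 0.0165, and 0.00426 without PLX3397 mouse J01), Gbp6 (-0.00403 to 0.179) and Iigp1 (-0.184 to 0.0104), and in PLX3397+Anakinra versus PLX3397 it was Gbp3 (-0.221 to 0.00544). Median-ratio scaling shifted the median of all genes by at most 0.031 on the log2 scale. No paired analysis was made, because no animal number is shared between groups as written. Without the letter B, the vehicle numbers J01B, J19B and J20B recur as J01, J19 and J20 under PLX3397, and J17B recurs as J17 with the combination. What the letter means is not given in the labels. Without read counts, what depth limits could not be judged.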
